A study of Mus musculus with 69 samples.

Results

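The 38 Hox genes described here lie in the 4 mammalian Hox clusters and were taken by symbol from a table of 55367 gene symbols, in which all 38 were found. Of these, 10 belonged to the Hoxa cluster (chromosome 6), 10 to Hoxb (chromosome 11), 9 to Hoxc (chromosome 15) and 9 to Hoxd (chromosome 2). By paralogue group, 7 were anterior (groups 1 to 3), 15 central (groups 4 to 8) and 16 posterior (groups 9 to 13).

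Hox genes encode homeodomain transcription factors that give cells of the trunk their position along the head to tail axis. They stand in clusters in which the order of the genes on the chromosome matches the order in which they are switched on, from the 3′ (anterior) to the 5′ (posterior) end, a relation called collinearity. In the gastrulating embryo, Wnt signals and Cdx factors help to switch on the clusters in posterior cells, and more 5′ genes are added as the axis grows.

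Bulk poly-A RNA sequencing had been done on E14Tg2A mouse embryonic stem (mES) cells and on cells sorted by FACS from mosaic gastruloids, which are aggregates of mES cells that elongate and form tissues of the trunk. The 69 libraries made 23 groups of 3 replicates. The 3 clones were WT–mCherry, with an H2B–mCherry transgene under EF1α, WT–emiRFP, with an H2B–emiRFP670 transgene under CAG, and p53KO–emiRFP, a daughter of WT–emiRFP with a homozygous frameshift in Trp53. Each was a single clone, and the transgenes had been inserted by piggyBac. WT + WT gastruloids were seeded from 150 WT–mCherry and 150 WT–emiRFP cells, and WT + p53KO gastruloids from 150 WT–mCherry and 25 p53KO–emiRFP cells. Both kinds received the Wnt agonist CHIR99021 from 48 to 72 h. The 3 clones were sampled as mES cells at 0 h. At 48, 72, 96, 120 and 144 h the sorted populations were WT–mCherry beside WT, WT–emiRFP beside WT–mCherry, WT–mCherry beside p53KO, and p53KO–emiRFP beside WT–mCherry. Gastruloids were pooled for each sort, and sort purity was not measured after FACS. Library totals ran from 26722541 to 72981570 counts. Trp53 averaged between 1632 and 2501 normalized counts in the p53KO–emiRFP groups and between 14712 and 25674 in the WT groups. The stem cell genes Pou5f1 and Nanog averaged at least 29502 and 29421 normalized counts in the mES groups. In such bulk samples, fewer cells of a type and less RNA per cell cannot be told apart.

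Normalized counts are raw counts divided by a median-ratio size factor, and levels per kb are normalized counts per kilobase of exon. Differences are log2 fold changes with their standard errors from edgeR's quasi-likelihood test, called at a Benjamini-Hochberg adjusted p under 0.05 over all genes tested. Genes below edgeR's filter on low counts were not tested, so that from 7 (48 h) to 35 (144 h) of the 38 members entered the comparisons at single times, and Hoxd11 and Hoxd12 entered none.

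**Figure D1:**
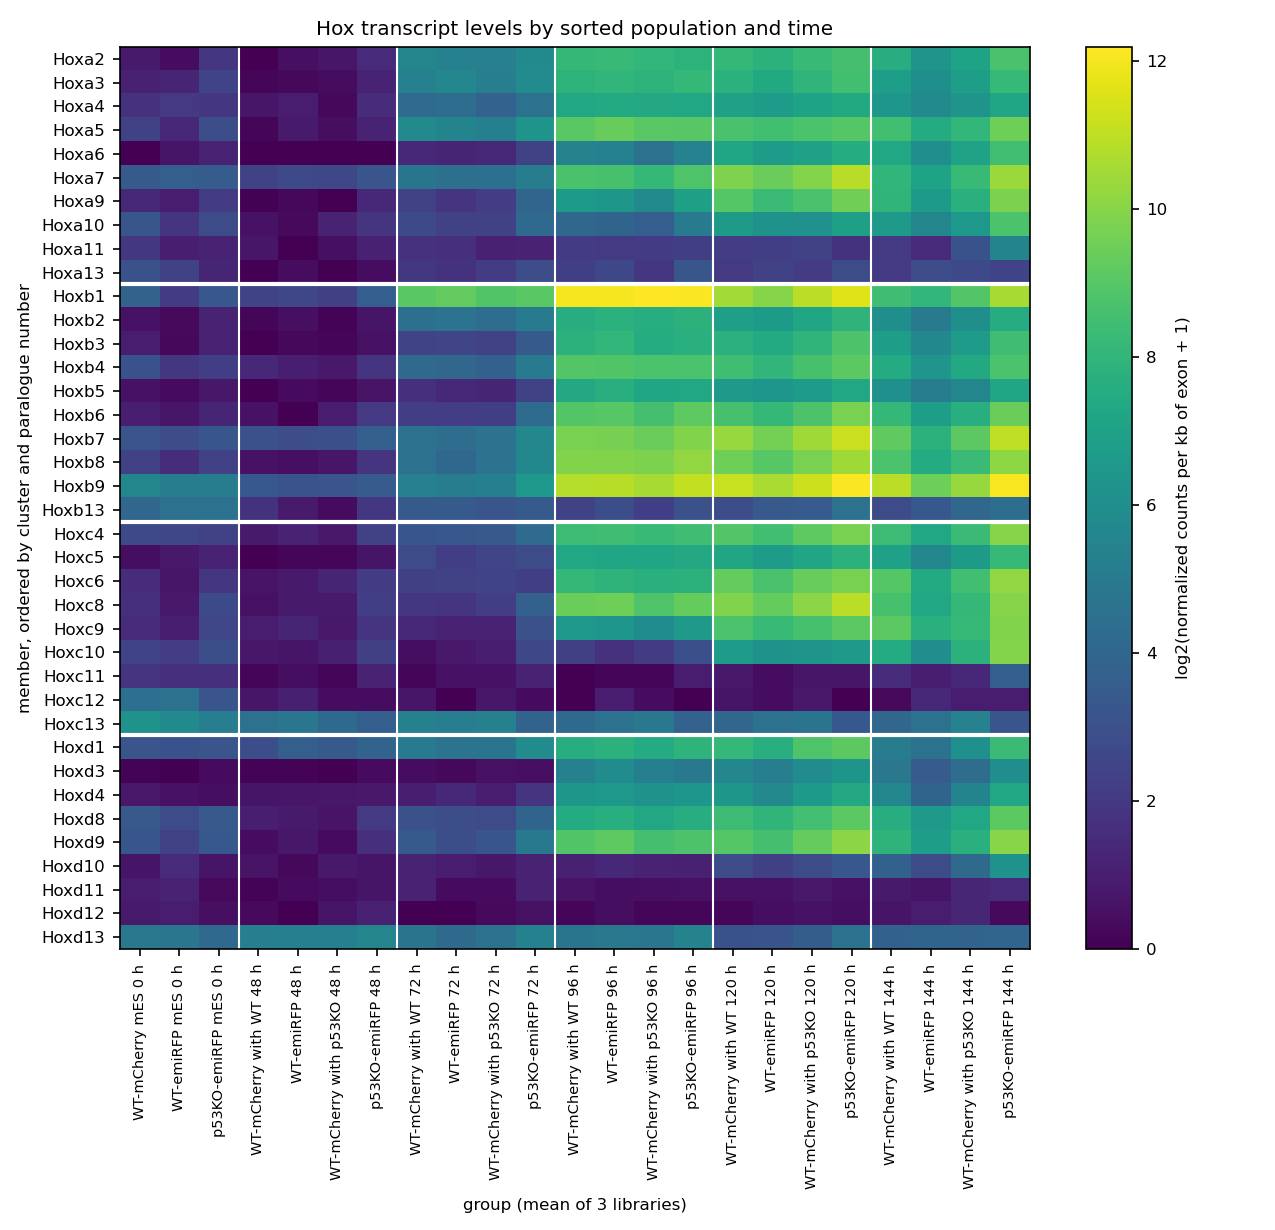
Mean level of each of the 38 members (rows, by cluster and paralogue number) in the 23 groups (columns, by time), as log2 of normalized counts per kb plus 1 (colour). Most members are dark at 0 and 48 h, Hoxb1 is the brightest at 72 h, most are bright from 96 h, and at 144 h the p53KO–emiRFP column is the brightest for all but a few members.

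The promoters of an early gene (Hoxb1), a gene from the middle of a cluster (Hoxb8) and a posterior gene (Hoxa10) are shown to place them on the genome. These are RefSeq sequences of build GRCm38.p6, from 250 bases before to 50 bases after a transcription start and written along the gene's strand, and RefSeq entries were matched for 22 of the 38 members. Capitals mark TTTATG, a core of the sequence bound by Cdx factors, read on both strands. Hoxb1 lies at chr11:96365508-96365807 (plus strand) with no match, Hoxb8 at chr11:96281655-96281954 (plus strand) with 1 match on each strand, and Hoxa10 at chr6:52240805-52241104 (minus strand) with no match.
Hoxb1: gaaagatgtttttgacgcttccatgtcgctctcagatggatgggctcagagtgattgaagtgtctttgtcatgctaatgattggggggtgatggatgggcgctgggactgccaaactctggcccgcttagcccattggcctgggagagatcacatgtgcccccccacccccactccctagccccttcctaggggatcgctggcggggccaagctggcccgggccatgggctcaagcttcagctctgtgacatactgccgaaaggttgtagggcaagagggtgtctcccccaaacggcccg
Hoxb8: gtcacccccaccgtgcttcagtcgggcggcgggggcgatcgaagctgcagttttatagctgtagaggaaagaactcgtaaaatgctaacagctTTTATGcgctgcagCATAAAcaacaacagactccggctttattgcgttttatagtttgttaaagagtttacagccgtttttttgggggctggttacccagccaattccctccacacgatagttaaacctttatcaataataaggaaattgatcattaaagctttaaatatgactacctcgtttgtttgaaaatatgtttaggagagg
Hoxa10: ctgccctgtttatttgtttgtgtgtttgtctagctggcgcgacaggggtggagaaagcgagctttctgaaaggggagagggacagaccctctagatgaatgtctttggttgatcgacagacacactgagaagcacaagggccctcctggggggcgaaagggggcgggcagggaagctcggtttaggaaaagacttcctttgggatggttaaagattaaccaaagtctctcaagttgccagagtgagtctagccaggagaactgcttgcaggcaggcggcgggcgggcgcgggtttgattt

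Of 24 member promoters, 5 held the motif (20.8%), 1 each of Hoxa7, Hoxb8, Hoxd3, Hoxd4 and Hoxd11, against 11.9% of the 32851 promoters of this length in the RefSeq table. A match is a match of letters, and no factor was measured on these sequences.

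In WT cells the members were switched on between 72 and 120 h, 3′ members before 5′ members. Onset was set as the first time at which the mean of the WT libraries reached 10% of the member's highest WT mean, for the 30 members whose WT mean reached 50 normalized counts. It fell at 72 h for 5 members, Hoxa2, Hoxa3, Hoxa4, Hoxb1 and Hoxb2. It fell at 96 h for 22 members, from group 1 (Hoxd1) to group 10 (Hoxa10), and at 120 h for Hoxc10 alone. The group at 72 h depended on the share of the highest mean, with 7 members at 5% and 0 at 25%, where 24 had their onset at 96 h and 4 at 120 h, and it held 3 without replicate 3. Hoxc13 and Hoxd13 had their highest WT means in mES cells and at 48 h. The other 8 members, all of groups 10 to 13, did not reach 50 normalized counts in a WT mean. Without Hoxc13 and Hoxd13, Spearman's rho of paralogue number and onset was 0.62 over 28 members. It was 0.85 over 8 members of Hoxa, 0.73 over 9 of Hoxb and 0.66 over 6 of Hoxc, and 5 of Hoxd shared 1 onset. With both group 13 genes it was 0.22 over 30. These are descriptions across genes that share their libraries.

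**Figure D2:**
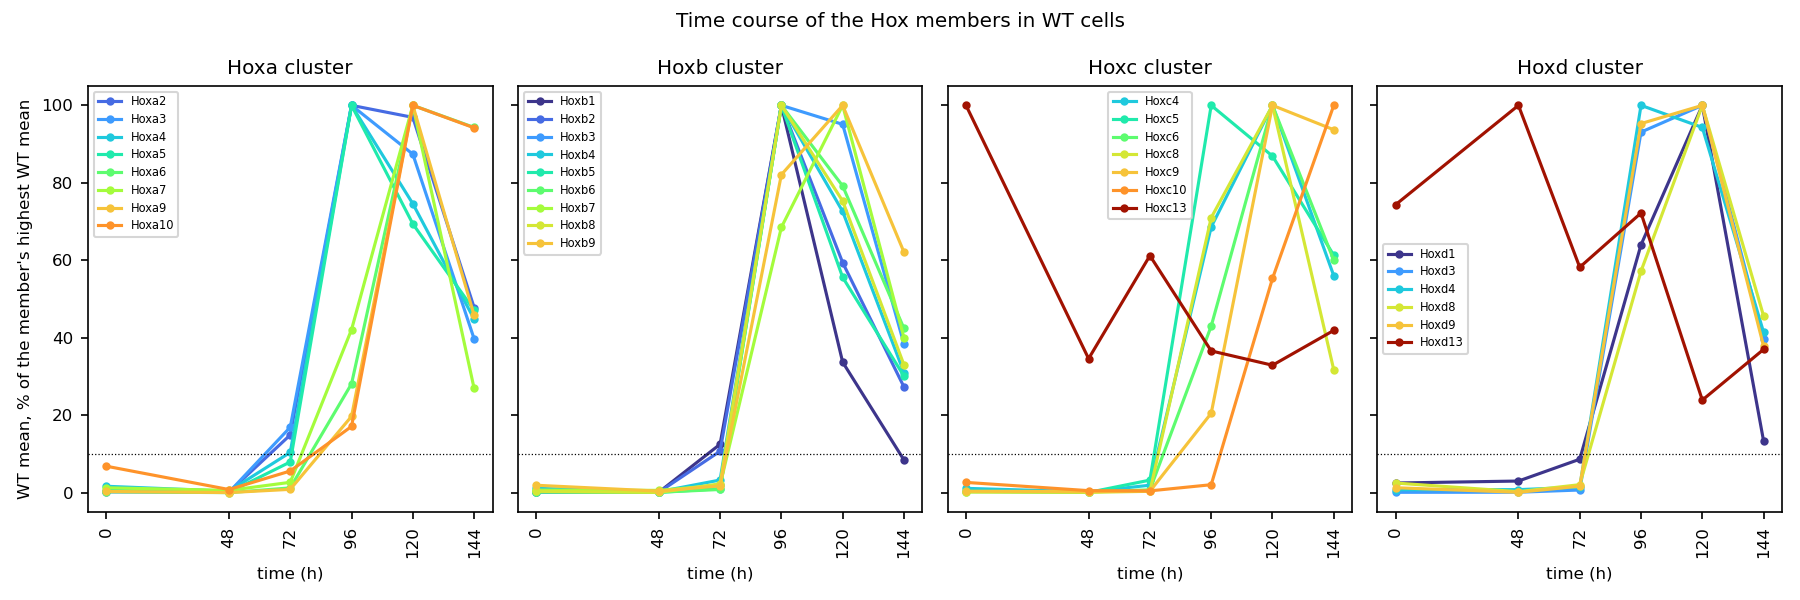
WT mean of each of the 30 members with an onset, in percent of its own highest WT mean (y axis), against time in hours (x axis), in a panel per cluster and coloured from 3′ (blue) to 5′ (red). The dotted line marks the 10% that defines onset, which 5 members cross at 72 h and Hoxc10 crosses last.

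Between 48 and 72 h, 29 of 36 members tested rose and 1, Hoxd13, fell in WT cells, where 66.8% of all genes tested were called. Hoxa3 rose by 7.54, Hoxa2 by 7.07 and Hoxb1 by 6.87 on the log2 scale. Between 72 and 96 h, 30 rose and 2 fell (58.7% of all genes called). All 7 anterior and all 15 central members rose in this step, led by Hoxc8 (7.66), which acts at thoracic levels, and Hoxd3 (7.04), while 8 of 14 posterior members tested rose.

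Between 96 and 120 h, 16 rose and 10 fell (56.9% of all genes called). Those that fell were Hoxd13 and 9 members of groups 1 to 8. Hoxb1, which patterns the hindbrain, fell by 1.62, whereas Hoxc10, which acts at lumbar levels, rose by 4.75 and Hoxa10 by 2.54. Between 120 and 144 h, 4 rose and 24 fell (55.5%). The 4 that rose, Hoxc10, Hoxc11, Hoxd10 and Hoxd13, were all posterior, and all 7 anterior members fell, Hoxd1 by 2.99 and Hoxb1 by 1.99. From mES cells to 48 h, 1 rose and 21 fell (70.3%).

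Hoxb1 and Hoxc10 show both ends of this course. In WT–mCherry cells beside WT, Hoxb1 was measured at 1086, 889 and 1715 normalized counts at 72 h, 9345, 9946 and 9631 at 96 h, 3672, 3274 and 3085 by 120 h and then 860, 952 and 601 by 144 h. Hoxc10 was measured at 0.998, 0 and 1.03 at 72 h, 10.4, 3.69 and 8.27 at 96 h, 148, 122 and 327 by 120 h and then 277, 241 and 498 by 144 h. Hoxb1 was highest at 96 h in every replicate and Hoxc10 was highest at 144 h. Per length, Hoxb1 had the highest WT mean of all members, 4312 normalized counts per kb at 96 h, followed by Hoxb9 with 2122 at 120 h.

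The register of the Hox transcripts, weighted by level, moved 5′ from 72 to 144 h. The mean paralogue number of a library, weighted by each member's level per kb, was 3.57 ± 0.075 (SD, n = 3) in WT–mCherry cells beside WT at 72 h, 4.86 ± 0.32 at 96 h, 6.28 ± 0.14 by 120 h and finally 6.95 ± 0.075 at 144 h. In WT–emiRFP cells it was 3.14 ± 0.24, 4.88 ± 0.35, 6.25 ± 0.15 and 6.67 ± 0.20 at these times. At 0 and 48 h, when the summed level was at its lowest, the group means lay between 8.41 and 10.24. In WT–emiRFP cells, anterior members made up 72.2% of the summed level at 72 h and 14.8% at 144 h, and posterior members 11.7% and 37.3%. By cluster, Hoxb held 70.8% of the summed level in WT–emiRFP cells at 72 h and 48.0% at 144 h, Hoxa 17.7% and 20.8%, Hoxc 5.73% and 23.3%, and Hoxd 5.82% and 7.94%. The share of Hoxb thus fell and that of Hoxc rose. The size and course of the shift depended on the weights. With weights of log2(level + 1), which count low members more, the mean paralogue number was 6.33 ± 0.07, 5.99 ± 0.041, 6.23 ± 0.043 and 6.46 ± 0.03 for the WT–mCherry neighbours of WT and 6.18 ± 0.076, 6.04 ± 0.052, 6.27 ± 0.047 and 6.58 ± 0.061 in WT–emiRFP cells from 72 to 144 h, so that it fell before it rose. The 72 h register rested on Hoxb1, without which it was 6.15 in WT–emiRFP cells.

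**Figure D3:**
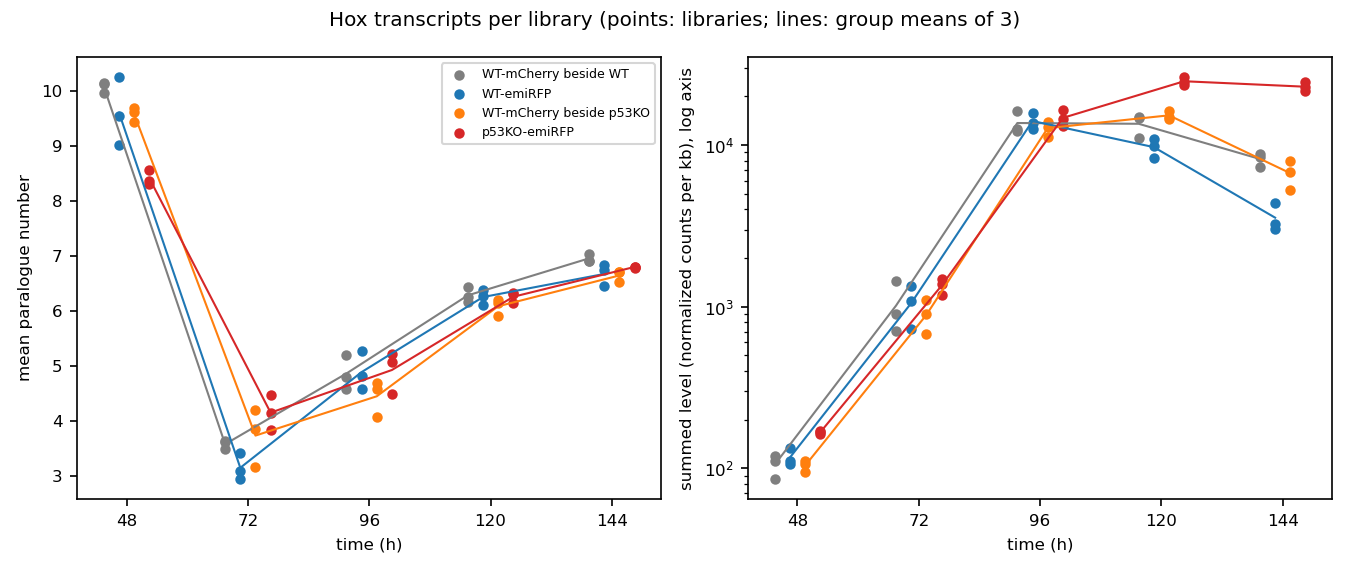
Mean paralogue number weighted by level (left) and summed level of the 38 members in normalized counts per kb on a log axis (right) against time in hours, with a point per library and lines through the means of 3. On the left the populations climb together from 72 h, and on the right the p53KO–emiRFP libraries lie between 21604 and 24402 at 144 h while the WT–emiRFP libraries lie between 3023 and 4406.

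p53KO–emiRFP cells carried more transcripts of most Hox genes than WT–emiRFP cells at 120 and 144 h. At 144 h, 32 of 35 members tested were higher and 1, Hoxc13, was lower (65.4% of all genes called). At 120 h, 28 of 34 were higher and 1, again Hoxc13, was lower (51.0%). The median log2 fold change over the members tested was 2.59 at 144 h and 1.14 at 120 h, beside 0.007 and 0.046 over all genes. All 7 anterior and all 15 central members were called higher at both times. Of the posterior members, 10 of 13 tested were higher at 144 h and 6 of 12 at 120 h. The medians at 144 h were 2.51 for anterior, 2.62 for central and 3.15 for the posterior members tested.

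Hoxd1, an anterior gene that had fallen in WT cells by 144 h, was then measured at 624, 556 and 587 normalized counts in p53KO–emiRFP and 51.7, 42.1 and 28.9 in WT–emiRFP cells (3.85 ± 0.18, adjusted p = 7.8e-10). The libraries did not overlap, and this was the largest anterior difference. The largest central one was in Hoxd4, with 467, 384 and 478 against 47.9, 39.0 and 36.8 (3.42 ± 0.32, adjusted p = 4.5e-07), again with no overlap. Of the exon bases of Hoxd4, 52.3% are shared with other genes of its strand, Hoxd3 among them, so that the counts of Hoxd3 and Hoxd4 are uncertain.

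Among posterior members, Hoxa11, which patterns the kidney, limb and posterior trunk, differed most. It was measured at 91.9, 76.7 and 134 normalized counts in p53KO–emiRFP and 5.64, 2.11 and 4.38 in WT–emiRFP cells at 144 h (4.58 ± 0.43, adjusted p = 5.2e-07). The WT–emiRFP values came from 6, 2 and 5 raw counts, and Hoxa11os on the other strand covers 35.0% of its exon bases. Hoxc10 was measured at 1872, 1710 and 1993 against 144, 79.0 and 135 (3.95 ± 0.26, adjusted p = 1.7e-08), and Hoxd10 at 112, 108 and 181 against 9.39, 6.32 and 15.8 (3.63 ± 0.40, adjusted p = 2.1e-06). In all of these the p53KO libraries lay above the WT libraries. The rise came late. Between 120 and 144 h, Hoxa11 rose by 4.15, Hoxc11 by 4.00, Hoxc10 by 3.38 and Hoxd10 by 3.06 on the log2 scale in p53KO–emiRFP cells.

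**Figure D4:**
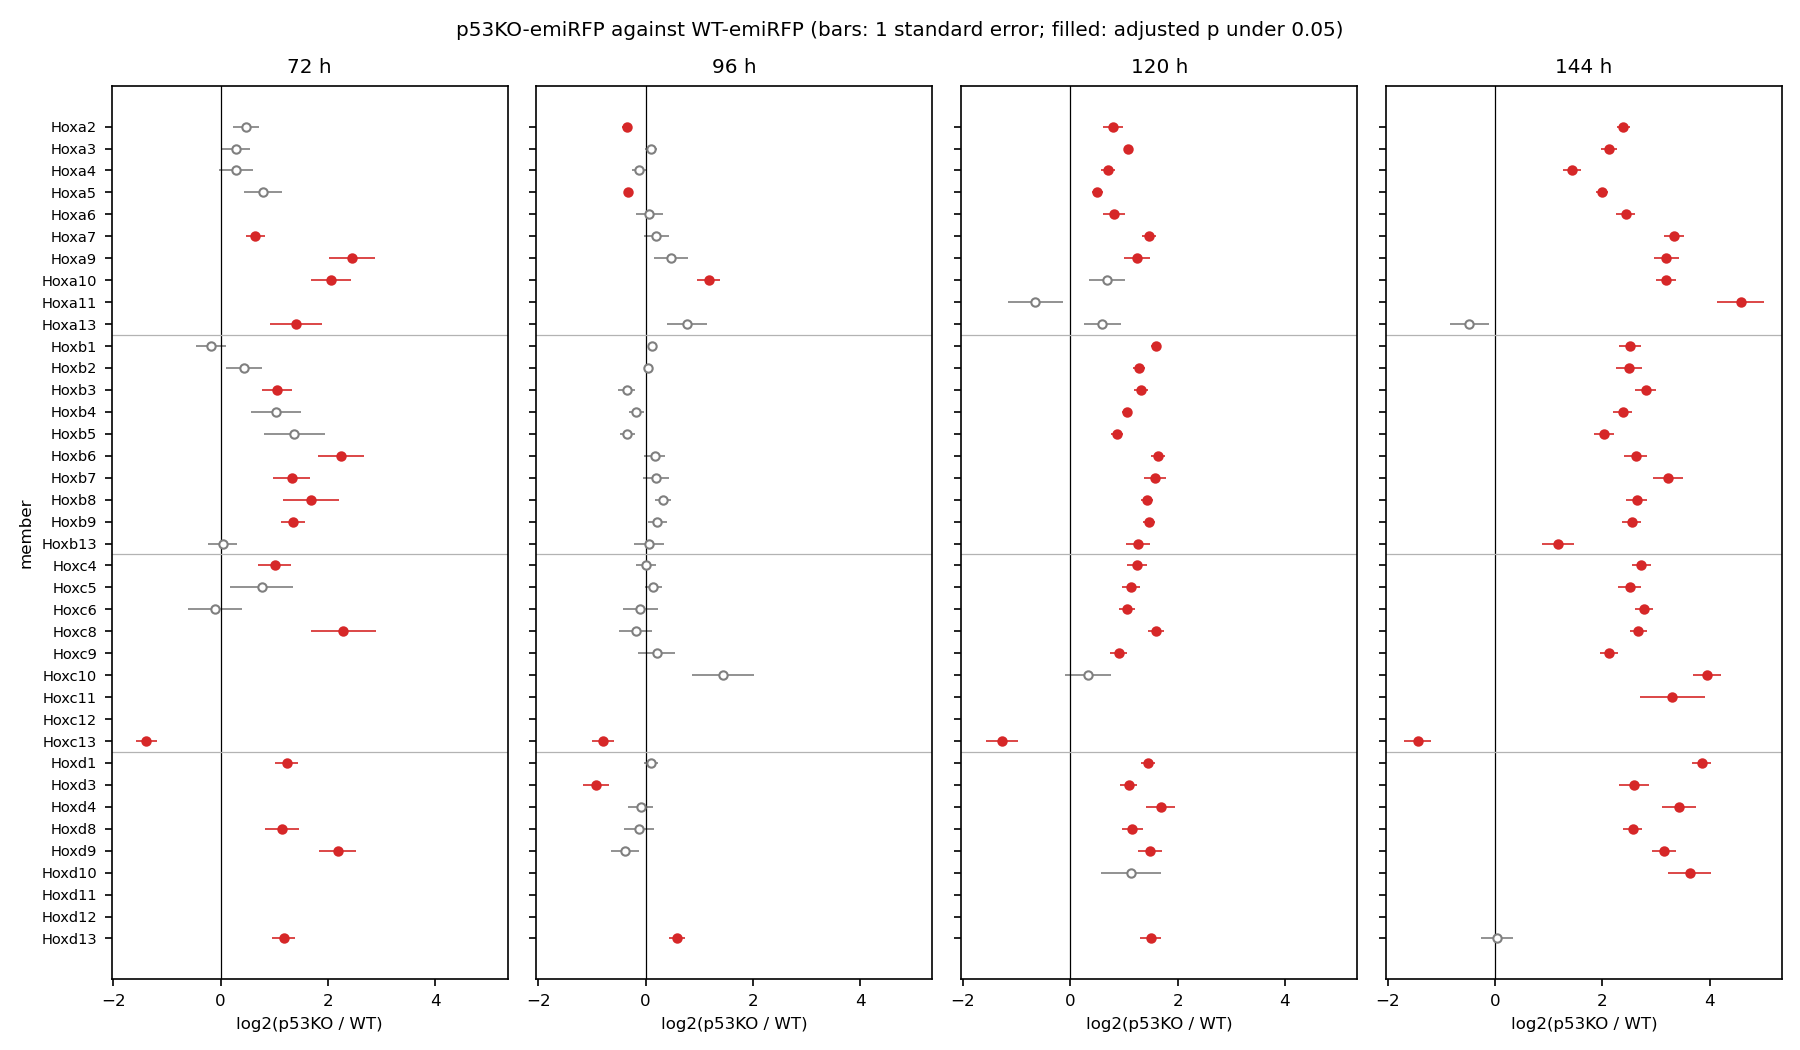
log2 fold change of p53KO–emiRFP against WT–emiRFP cells (x axis) for each member tested (y axis, by cluster and paralogue number) at 72, 96, 120 and 144 h. Bars are 1 standard error and filled points have an adjusted p under 0.05; 15 members are called higher in the first panel, 2 in the second, 28 in the third and 32 in the last, and Hoxc13 is called lower in each panel.

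The members with the highest level per kb in each cluster at 144 h, averaged over the 4 sorted populations with p53KO–emiRFP among them, showed the same order of libraries. Hoxa7 was measured at 3972, 3536 and 3908 normalized counts in p53KO–emiRFP and 499, 340 and 296 in WT–emiRFP cells (3.33 ± 0.19, adjusted p = 3.8e-09), and Hoxb9 at 12072, 10623 and 10073 against 2479, 1643 and 1494 (2.55 ± 0.18, adjusted p = 2.8e-08). Hoxc6 was measured at 3003, 2689 and 2792 against 523, 360 and 355 (2.78 ± 0.18, adjusted p = 1.1e-08), and Hoxd9 at 2101, 2074 and 2366 against 244, 205 and 284 (3.15 ± 0.22, adjusted p = 3.0e-08). In none of the 4 did the groups overlap. In the WT populations alone, Hoxa5 and Hoxc9 had the highest level per kb of their clusters, and Hoxb9 and Hoxd9 remained so. Hoxa5 was measured at 1274, 1411 and 1360 against 357, 325 and 332 (2.00 ± 0.11, adjusted p = 3.7e-09) and Hoxc9 at 2315, 2171 and 2285 against 681, 461 and 410 (2.13 ± 0.17, adjusted p = 8.8e-08), again without overlap. These genes act at thoracic and, for group 9, more posterior levels of the trunk.

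At 120 h, Hoxb1 led the anterior members, at 7059, 7401 and 6720 normalized counts in p53KO–emiRFP and 2511, 2404 and 2080 in WT–emiRFP cells (1.60 ± 0.095, adjusted p = 1.0e-08). Hoxd4 led the central members, at 513, 419 and 529 against 167, 103 and 184 (1.68 ± 0.27, adjusted p = 1.4e-04). Hoxd13 led the posterior members, at 51.4, 58.4 and 61.6 against 17.6, 21.5 and 21.4 (1.50 ± 0.20, adjusted p = 2.2e-05). In each the p53KO libraries lay above the WT libraries. Hoxd13, a gene of the limb and hindgut, was no longer called at 144 h (0.04 ± 0.30, adjusted p = 0.92).

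The difference did not grow evenly. At 72 h, 15 of 27 members tested were higher and 1 was lower in p53KO–emiRFP cells (29.1% of all genes called), with 2 of 6 anterior, 7 of 13 central and 6 of 8 posterior members higher. Hoxa9 was measured at 74.4, 94.0 and 74.4 normalized counts against 3.68, 8.16 and 31.8 in WT–emiRFP cells (2.45 ± 0.43, adjusted p = 6.2e-04), and Hoxa10 at 52.2, 62.7 and 51.9 against 12.3, 7.14 and 20.9 (2.05 ± 0.37, adjusted p = 7.5e-04). Hoxb1, by far the most abundant member at that time, was measured at 1262, 974 and 1551 against 1538, 942 and 1830 and was not called (-0.19 ± 0.28, adjusted p = 0.66). Without the libraries of replicate 1, 7 members were higher and 1 lower.

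At 96 h, 2 members were higher and 4 lower of 32 tested (23.3% of all genes called). Hoxa10 (1.18 ± 0.21) and Hoxd13 (0.59 ± 0.15) were the higher ones, and Hoxa2, Hoxa5, Hoxd3 and Hoxc13 the lower ones. With the replicate number as a block, 9 were higher and 8 lower, and without replicate 1, 1 was higher and 1 lower.

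The change of the genotype difference between consecutive times was tested directly. From 72 to 96 h it fell in 11 members and rose in 0 (11% of all genes called), but in 2 without replicate 1 and 1 without replicate 2. From 96 to 120 h it rose in 25 and fell in 0 (30.8%), and from 120 to 144 h it rose in 29 and fell in 1, Hoxd13 (16.9%). From 48 to 72 h it was called in 0 of 36 members by edgeR (1.76%), with 5 at an unadjusted p under 0.05, and in 0 of the 31 that DESeq2 tested. From 0 to 48 h it rose in Hoxd13 (5.99%), a call that was lost without replicate 1, 2 or 3.

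Each genotype's own course shows where the gap opened. In p53KO–emiRFP cells, 25 members rose and 0 fell from 48 to 72 h (46.4% of all genes called), and 28 rose and 0 fell from 72 to 96 h (44.6%). From 96 to 120 h, 21 rose and 2 fell (35.0%), and from 120 to 144 h, 8 rose and 5 fell (22.7%). In WT cells 24 members fell in the last of these steps. From mES cells to 48 h, 2 rose and 8 fell (59.5%), against 1 and 5 without replicate 3. The level summed over the 38 members was 14086 ± 1655 (SD, n = 3) normalized counts per kb in WT–emiRFP and 14728 ± 1666 in p53KO–emiRFP cells at 96 h. It came to 9708 ± 1329 in WT–emiRFP against 24831 ± 1404 in p53KO–emiRFP cells at 120 h, and to 3552 ± 746 against 22966 ± 1400 at 144 h. The shares of the clusters stayed close, with Hoxb at 46.9%, Hoxa at 20.1%, Hoxc at 23.4% and Hoxd at 9.58% of the summed level in p53KO–emiRFP cells at 144 h.

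With Hoxb1 included and weights by level, the register of the genotypes overlapped at 120 and 144 h. The mean paralogue number was 6.80 ± 0.01 (SD, n = 3) in p53KO–emiRFP and 6.67 ± 0.20 in WT–emiRFP cells at 144 h, and 6.25 ± 0.099 and 6.25 ± 0.15 at 120 h, with the p53KO libraries inside the range of the WT–emiRFP libraries at both times. Without Hoxb1 it was 6.99 against 6.86 at 120 h and 7.21 against 7.13 at 144 h. Every p53KO library then lay above every WT–emiRFP library at both times. Weights of log2(level + 1) gave lower means in p53KO–emiRFP cells, 6.24 against 6.27 and 6.50 against 6.58. By cluster at 144 h it was 6.53 against 5.81 in Hoxa, 6.63 against 6.58 in Hoxb, 7.21 against 7.24 in Hoxc and 7.14 against 7.79 in Hoxd. At 72 h the mean paralogue number over all members was 4.14 ± 0.32 against 3.14 ± 0.24, with every p53KO library above every WT–emiRFP library. Without Hoxb1 it was then 6.24 against 6.15. In p53KO–emiRFP cells, onset fell at 72 h for 7 members (the 5 of WT cells, Hoxa5 and Hoxd1), at 96 h for 19, at 120 h for Hoxa10 and Hoxd10 and at 144 h for Hoxa11 and Hoxc10. Onset is relative to each member's own highest mean, which differed between the genotypes.

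Hoxc13, known for its role in hair and nail, ran against the other members. It was called lower in p53KO–emiRFP cells than in their WT–emiRFP controls at each sorted time, by 1.23 at 48 h, 1.38 at 72 h, 0.79 at 96 h, and then by 1.27 at 120 h and by 1.45 at 144 h on the log2 scale. At 144 h it was measured at 13, 23.2 and 25.4 normalized counts against 57.3, 57.9 and 51.7 (adjusted p = 1.8e-04), with no overlap. Hoxc12, which lies next to it on its 3′ side, was seen mainly in mES cells, at 21.5, 25.3 and 23.5 in WT–emiRFP against 7.31, 9.97 and 8.55 in p53KO–emiRFP cells (-1.42 ± 0.29, adjusted p = 0.01). In mES cells, 1 member was higher, Hoxa3, and 1 lower, Hoxc12, of 19 tested (6.14% of all genes called), and with the block 4 were higher and 1 lower. Without replicate 1, 4 were called in mES cells, and without replicate 2 or replicate 3, 0. At 48 h, 1 was higher, Hoxb1, and 1 lower, Hoxc13, of 7 (22.1%). The call of Hoxb1 was lost without replicate 2 or replicate 3, and with no filter on low counts 7 were higher and 1 lower.

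The WT clones also differed late. At 144 h, 27 of 35 members tested were lower and 0 higher in WT–emiRFP than in WT–mCherry cells of the same gastruloids (23.8% of all genes called), with a median of -1.08. The largest differences by class were in Hoxd3 (-1.41 ± 0.29, adjusted p = 0.0034), Hoxd4 (-1.72 ± 0.33, adjusted p = 0.0021) and Hoxc10 (-1.49 ± 0.26, adjusted p = 0.0013). Hoxd3 was measured at 61.1, 32.6 and 35.9 normalized counts in WT–emiRFP and 165, 82.1 and 98.6 in WT–mCherry cells, Hoxd4 at 47.9, 39.0 and 36.8 and 176, 77.4 and 158, and Hoxc10 at 144, 79.0 and 135 and 277, 241 and 498. In none of the 3 did the groups overlap. Pou5f1 and Nanog, which mark stem and germ cells, moved the other way, with Nanog at 21140, 23973 and 25157 in WT–emiRFP and 16169, 17537 and 17249 in WT–mCherry cells and Pou5f1 at 13812, 13396 and 13618 and 9918, 9999 and 10354, again without overlap. Of the tissue markers, 5 of 8 for paraxial mesoderm, 2 of 6 for caudal epiblast and 3 of 6 for spinal cord were lower in WT–emiRFP cells, and 0, 1 and 0 higher. The part of these markers in the Hox difference was not tested. The same WT–emiRFP libraries are the controls of the genotype comparison, and their summed Hox level of 3552 ± 746 lay below the 8197 ± 777 of WT–mCherry cells and the 22966 ± 1400 of p53KO–emiRFP cells.

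Earlier, how many members separated the WT clones depended on the replicate block. At 120 h, 2 of 34 were lower, Hoxb1 (-0.52 ± 0.094, adjusted p = 0.016) and Hoxb9 (-0.49 ± 0.10, adjusted p = 0.041), and 0 higher (1.22% of all genes called), with 21 at an unadjusted p under 0.05. Hoxb9 was measured at 4777, 3738 and 3957 normalized counts in WT–emiRFP and 6469, 4905 and 6098 in WT–mCherry cells, without overlap. With the block 20 were lower and 1 higher, without replicate 2 8 were lower, and without replicate 1 or replicate 3 0 were called. At 0 h, 1 of 19 was lower, Hoxa10 (11.1%), against 3 without replicate 1 and 0 without replicate 2 or replicate 3. At 48 h 0 of 7 (8.90%), at 72 h 0 of 27 (7.64%) and at 96 h 0 of 32 (2.15%) were called by edgeR, with 0, 0 and 5 at an unadjusted p under 0.05 and 0, 0 and 1 called by DESeq2, which tested 3, 21 and 29. With the block 6 were higher at 96 h.

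A further contrast was built from the gaps within gastruloids. The gap between p53KO–emiRFP cells and the WT–mCherry cells of their own gastruloids was compared with the gap between WT–emiRFP cells and the WT–mCherry cells of theirs. This equals the genotype difference minus the difference of WT–mCherry cells between p53KO and WT neighbours. It reuses the WT–emiRFP controls and is not independent of the genotype comparison. The summed level at 144 h was 22966 ± 1400 in p53KO–emiRFP and 6694 ± 1347 in the WT–mCherry cells beside them. At 144 h this difference within gastruloids was above 0 in 31 called members and below 0 in 1 of 35 (62.1% of all genes called), with a median of 2.92. Hoxd3 led the anterior members (3.09 ± 0.39, adjusted p = 1.1e-05), Hoxd4 the central (3.51 ± 0.43, adjusted p = 8.9e-06) and Hoxc10 the posterior ones (3.59 ± 0.35, adjusted p = 9.9e-07). Hoxb13, a tailbud gene called higher in p53KO–emiRFP cells than in their WT–emiRFP controls (1.17 ± 0.29), was not called here (-0.08 ± 0.43). In p53KO–emiRFP and in the WT–mCherry cells beside them at 144 h, Hoxd3 was measured at 305, 237 and 243 and 80.7, 65.5 and 97.3, Hoxd4 at 467, 384 and 478 and 171, 76.1 and 139, and Hoxc10 at 1872, 1710 and 1993 and 464, 348 and 481, with the p53KO libraries above in each. At 120 h, 26 were above and 1 below 0 of 34 (33.1%), and the largest differences by class were in Hoxb1 among anterior (1.19 ± 0.13, adjusted p = 1.4e-05), Hoxb6 among central (1.48 ± 0.18, adjusted p = 3.7e-05) and Hoxc13 among posterior members, below 0 (-1.95 ± 0.41, adjusted p = 0.0024). The largest posterior one above 0 was in Hoxa9 (1.50 ± 0.33, adjusted p = 0.0035). Hoxb6 was measured at 1670, 1725 and 1620 normalized counts in p53KO–emiRFP and 897, 825 and 832 in the WT–mCherry cells beside them, and at 572, 419 and 633 in WT–emiRFP and 783, 648 and 879 in the WT–mCherry cells beside those. The p53KO libraries lay above all others. Hoxb1 was measured at 7059, 7401 and 6720 in p53KO–emiRFP and 4345, 5024 and 3978 in the WT–mCherry cells beside them at 120 h, with the values of the WT + WT gastruloids at 2511, 2404 and 2080 in WT–emiRFP and 3672, 3274 and 3085 in WT–mCherry cells. Hoxc13 was at 22.6, 27.4 and 19.2 and 62.8, 76.2 and 40.9 in WT + p53KO gastruloids and at 49.6, 71.2 and 47.5 and 33.0, 52.8 and 27.9 in WT + WT gastruloids, the emiRFP clone first in each. Without replicate 1, 16 were above and 0 below 0 at 120 h.

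At 72 h the difference within gastruloids was above 0 in 9 and below 0 in 1 of 27 members (20.5% of all genes called). With the block 15 were above and 1 below 0. Without replicate 1 or replicate 2 the members above 0 numbered 1 or 4. At 96 h, 1, Hoxa10, was above and 2, Hoxa5 and Hoxc13, below 0 of 32 (13%), with 10 and 4 under the block and 0 called without replicate 1. At 48 h, 0 of 7 were called by edgeR (10.9%), with 2 at an unadjusted p under 0.05. With the block 2 were called, and DESeq2 called 0 of the 2 that it tested.

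WT–mCherry cells were then compared beside p53KO and beside WT neighbours. At 144 h, 3 members were higher and 5 lower of 35 tested (25.6% of all genes called), and with the block 5 and 11. Hoxc13, Hoxb13 and Hoxd1 were the higher ones. Hoxc13 was measured at 116, 115 and 76.6 normalized counts beside p53KO and 38.3, 42.2 and 34.2 beside WT (1.41 ± 0.22, adjusted p = 7.2e-04), and Hoxd1 at 139, 118 and 128 and 74.8, 61.8 and 53.9 (1.01 ± 0.17, adjusted p = 0.0013). Neither gene's groups overlapped. The lower ones were Hoxa2, Hoxa5, Hoxb9, Hoxc8 and Hoxc9. Hoxc8 was measured at 908, 628 and 853 beside p53KO and 1244, 1071 and 1112 beside WT (-0.52 ± 0.16, adjusted p = 0.026), and Hoxb9 at 4046, 2638 and 3154 and 5402, 5032 and 4622 (-0.61 ± 0.17, adjusted p = 0.018), again without overlap. The mean paralogue number was 6.64 ± 0.11 beside p53KO and 6.95 ± 0.075 beside WT, with every library beside p53KO below every library beside WT. At 96 h it was 4.44 ± 0.33 against 4.86 ± 0.32 and at 120 h 6.08 ± 0.15 against 6.28 ± 0.14, lower beside p53KO for each of the 3 replicate numbers but with ranges that overlapped. With weights of log2(level + 1) the direction at 144 h turned, to 6.58 ± 0.009 beside p53KO and 6.46 ± 0.03 beside WT, with every library beside p53KO above, and at 96 and 120 h the replicate numbers differed in direction. Without replicate 2, 2 members were higher and 3 lower.

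RNA of emiRFP cells moved with this comparison. H2bc14, a histone gene high in both emiRFP clones, was measured at 933, 131 and 459 normalized counts in WT–mCherry cells beside p53KO and 137, 14.1 and 105 beside WT at 144 h, against 5528, 5482 and 4968 in p53KO–emiRFP cells. Above its level in WT–mCherry mES cells, this is 16.8%, 2.26% and 9.1% of the level of the sorted p53KO–emiRFP cells, and beside WT it is 2.01%, 0.0919% and 1.59% of that of the WT–emiRFP cells. By H2bc21 the shares were 19.6%, 2.73% and 19.4% beside p53KO and 6.09%, 1.42% and 6.82% beside WT. When these shares of the emiRFP counts were subtracted, 2 members were higher and 18 lower by H2bc14, and 2 and 23 by H2bc21. Hoxc13 went from 1.41 to 1.53 and 1.61, and Hoxb9 from -0.61 to -1.05 and -1.37. Hoxd1 went from 1.01 to 0.27 and -0.46, so that its direction depended on the subtraction.

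**Figure D5:**
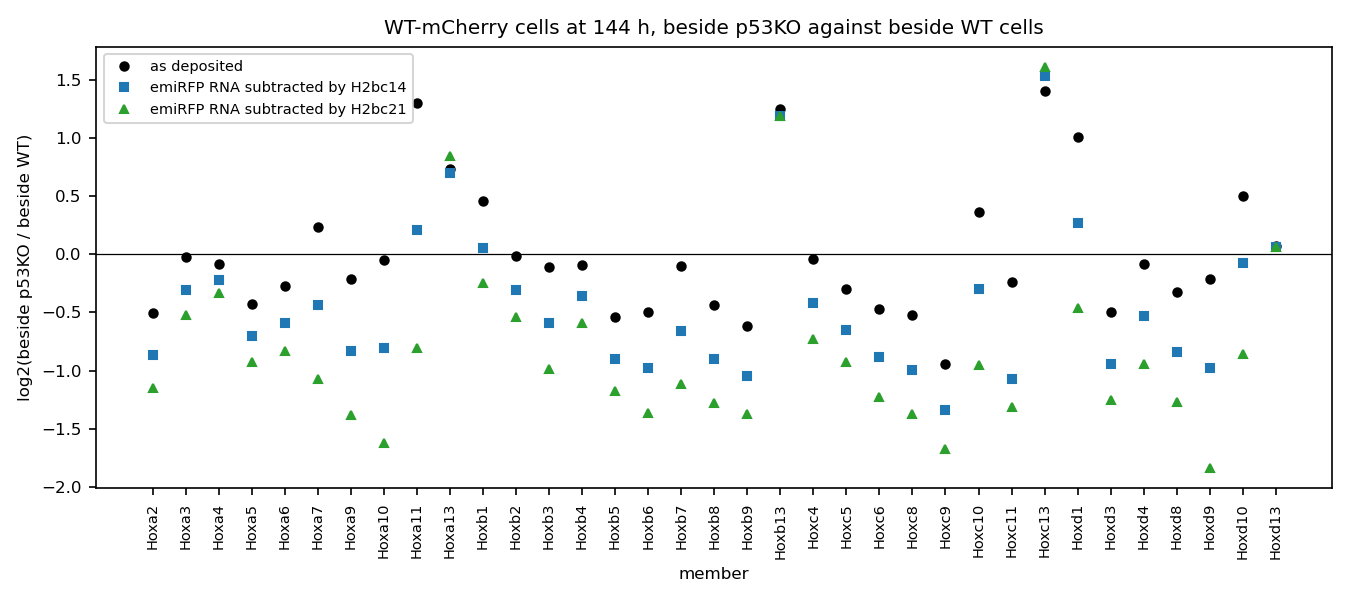
log2 fold change of WT–mCherry cells with p53KO neighbours relative to those with WT neighbours at 144 h (y axis) for each member tested (x axis), from the deposited counts (circles) and after subtraction of emiRFP RNA estimated by H2bc14 (squares) or H2bc21 (triangles). Subtraction lowers most members, with 18 and 23 called lower, while Hoxb13 and Hoxc13 stay above 1.

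At 96 and 120 h, how many members differed between neighbours depended on the replicate block, and 0 were called at 48 and 72 h. At 120 h, 2 of 34 were higher and 0 lower (5.94% of all genes called), Hoxb1 (0.41 ± 0.093, adjusted p = 0.018) and Hoxd1 (0.73 ± 0.13, adjusted p = 0.0055). Under the block, 9 were higher and 2 lower. Deviations from the group means of libraries with the same replicate number correlated at 0.07, 0.625 and 0.576 there. After subtraction of emiRFP RNA by H2bc14 and by H2bc21, Hoxb1 was no longer called (0.35, adjusted p = 0.055 and 0.23, adjusted p = 0.36), and Hoxd1 was (0.71, adjusted p = 0.008 and 0.66, adjusted p = 0.013). Hoxd1 was measured at 784, 878 and 913 normalized counts beside p53KO and 582, 466 and 504 beside WT, without overlap. Without replicate 1, 2 or 3, 1, 0 or 1 members were called at 120 h. At 96 h, 1 of 32 was higher, Hoxc13 (0.81 ± 0.20, adjusted p = 0.04), and 0 lower (3.92%), and with the block 2 were higher and 13 lower. Without replicate 1 or replicate 2, 0 were called at 96 h. At 72 h 0 of 27 (0.559%) and at 48 h 0 of 7 (0.0736%) were called by edgeR, with 0 and 0 at an unadjusted p under 0.05, and DESeq2 called 0 of the 20 and 0 of the 2 that it tested.

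Noncoding transcripts of the clusters were also higher in p53KO–emiRFP cells. Of 16 on the list 15 were in the table and 9 were tested at 144 h, and all 9 were higher in p53KO–emiRFP cells than in their WT–emiRFP controls at 120 h (51.0% of all genes called) and at 144 h (65.4%). At 144 h, Hoxaas3, which overlaps Hoxa7 on the other strand, was higher by 3.84 ± 0.23, Hoxb5os by 3.40 ± 0.30 and Haglr, in the Hoxd cluster, by 3.02 ± 0.22. Reads of the Mir10a gene were at 37.3, 31.3 and 22.5 normalized counts against 6.58, 2.11 and 3.50 (2.86 ± 0.62, adjusted p = 1.0e-03), and those of Mir196a-1 at 191, 140 and 188 against 46.0, 31.6 and 48.1 (2.03 ± 0.23, adjusted p = 3.2e-06). Mir10b and Mir196a-2 were below 10 normalized counts in every library at 120 and 144 h. Mir196b, which shares 1.52% of the exon bases of Hoxa9 on its strand, was listed at 0 in every library, and reads over both genes were dropped in counting, so that its level is not known. Poly-A libraries count hairpin or host transcripts, and mature miRNAs were not measured.

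The mature sequences of these 2 families, from RefSeq (GRCm38.p6), are shown because each family shares its seed (bases 2 to 8, in capitals) between clusters. They lie at chr11:96317186-96317208 (miR-10a), chr2:74726074-74726096 (miR-10b), chr11:96265187-96265208 and chr15:102973365-102973386 (miR-196a), all on the plus strand, and at chr6:52230129-52230150 on the minus strand (miR-196b).
miR-10a-5p: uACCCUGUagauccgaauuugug
miR-10b-5p: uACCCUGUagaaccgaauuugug
miR-196a-5p: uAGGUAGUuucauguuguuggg
miR-196b-5p: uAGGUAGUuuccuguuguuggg

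Genes beside the clusters changed in both directions. Of the 16 nearest protein-coding genes, the closest pair on each side of each cluster, 15 were tested at 144 h, and 5 were higher and 6 lower in p53KO–emiRFP cells than in their WT–emiRFP controls, where 65.4% of all genes were called. Evx1, a homeobox gene of the posterior streak at the 5′ end of Hoxa, was higher, at 411, 407 and 455 normalized counts against 55.4, 40.0 and 42.0 (3.21 ± 0.19, adjusted p = 5.8e-09). Ttll6 (-3.13 ± 0.18) and Calcoco2 (-2.68 ± 0.11), at the 5′ side of Hoxb, were lower.

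Of 12 upstream regulators of the clusters, 10 were higher and 1 lower in p53KO–emiRFP cells than in their WT–emiRFP controls at 144 h, and 10 and 1 at 120 h, beside 65.4% and 51.0% of all genes called in either direction. Cdx2 was measured at 5525, 5953 and 5975 normalized counts against 288, 243 and 218 at 144 h (4.54 ± 0.12, adjusted p = 1.2e-11), and Cdx4 at 4407, 4280 and 4947 against 147, 117 and 131 (5.11 ± 0.16, adjusted p = 5.6e-11). Both encode caudal factors that act on central and posterior Hox genes. T, which marks the primitive streak and tailbud, was higher by 4.37 ± 0.17, and Gdf11, a ligand of the trunk to tail transition, by 2.62 ± 0.17. The retinoic acid receptor gene Rarg was lower (-0.42 ± 0.063), and Rara did not pass the test (-0.05 ± 0.065). In WT–mCherry cells, comparing p53KO with WT neighbours, 7 of the 12 were higher and 1 lower at 144 h (25.6% of all genes called), with Cdx2 at 1354, 1057 and 1129 against 364, 309 and 308 (1.85 ± 0.11, adjusted p = 1.3e-06). After subtraction of emiRFP RNA by H2bc14 and by H2bc21, Cdx2 was at 1.09, adjusted p = 3.7e-04 and 0.32, adjusted p = 0.77, and 4 and 3 of the 12 were higher and 4 and 4 lower.

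Of 9 TALE genes, whose proteins bind DNA together with Hox proteins, 7 were higher and 0 lower in p53KO–emiRFP cells at 144 h (65.4% of all genes called), led by Pknox2 (2.79 ± 0.17), Meis3 (1.91 ± 0.16) and Meis1 (1.67 ± 0.16). At 96 h 1 was higher and 6 lower (23.3% of all genes called). Of 9 Polycomb and trithorax genes, which keep Hox clusters silent or active, 4 were higher and 3 lower at 144 h (65.4% of all genes called). Cbx2 (1.21 ± 0.097) and Suz12 (-0.61 ± 0.10), both of Polycomb complexes, were the extremes.

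Markers of some cell types moved with the Hox genes and those of others did not, and 65.4% of all genes were called between the genotypes at 144 h. All 6 caudal epiblast markers were higher in p53KO–emiRFP cells than in their WT–emiRFP controls at 144 h, with summed levels of 14307 to 15062 normalized counts against 1051 to 1209, and of 2565 to 3221 in WT–mCherry cells beside p53KO against 1093 to 1315 beside WT. Of these markers 5 were higher and 0 lower between neighbours, and after subtraction of emiRFP RNA 2 and 1 by H2bc14 and 0 and 1 by H2bc21. All 8 paraxial mesoderm markers were higher, with sums of 23762 to 32212 against 4010 to 5461. Of the caudal epiblast markers, T, Cdx2, Wnt3a and Fgf8 are also on the list of upstream regulators. Both tissues transcribe Hox genes. Of 6 spinal cord markers 3 were higher and 1 lower, with sums of 13532 to 15309 against 16723 to 19648. Of 5 endoderm markers 0 were higher and 2 lower (6641 to 9890 against 19733 to 23765), and of 5 haematoendothelial markers 0 and 2 (1694 to 2153 against 7194 to 7224). Of 5 cardiac markers 0 were higher and 2 lower (298 to 337 against 431 to 849). Markers of the forebrain and midbrain, which lack Hox transcripts, had low sums in both genotypes (298 to 353 against 319 to 342). Pou5f1 and Nanog ran against the Hox genes. Nanog was measured at 3202, 3800 and 4853 normalized counts in p53KO–emiRFP and 21140, 23973 and 25157 in WT–emiRFP cells at 144 h, and Pou5f1 at 2206, 2501 and 3131 against 13812, 13396 and 13618. At 120 h Nanog was at 2393, 2590 and 2612 against 16930, 18049 and 18436 and Pou5f1 at 2869, 3323 and 2486 against 9348, 11387 and 10721. Every p53KO library lay below every WT–emiRFP library in both genes at both times. Markers and TALE cofactors also moved between neighbours at 144 h, where 25.6% of all genes were called. Of 6 spinal cord markers, 0 were higher and 4 lower beside p53KO, 0 and 4 after subtraction by H2bc14 and 0 and 4 by H2bc21. Of 8 paraxial mesoderm markers, 3 were higher and 1 lower beside p53KO, 0 and 3 after subtraction by H2bc14 and 0 and 3 by H2bc21. Of 5 haematoendothelial markers, 0 were higher and 3 lower beside p53KO, 1 and 3 after subtraction by H2bc14 and 1 and 3 by H2bc21. Of 5 cardiac markers, 1 was higher and 0 lower beside p53KO, 2 and 0 after subtraction by H2bc14 and 2 and 0 by H2bc21. Of 5 endoderm markers, 1 was higher and 0 lower beside p53KO, 1 and 0 after subtraction by H2bc14 and 3 and 0 by H2bc21. Among 5 forebrain and midbrain markers tested, 0 were higher and 2 lower after subtraction by H2bc14 and 0 and 2 by H2bc21. Of 9 TALE cofactors, 0 were higher and 5 lower beside p53KO, 0 and 7 after subtraction by H2bc14 and 0 and 7 by H2bc21. The part of these shifts in the Hox differences was not tested.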

How the data were processed

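The authors deposited raw counts of uniquely mapped reads per gene symbol, made from poly-A libraries with Trim Galore 0.6.7, STAR 2.7.11b and the GRCm38.p6 genome. Genes lying wholly under exons of the other strand were at 0 in 208 of 211 cases, so that strand was not used in counting and reads over overlapping genes were dropped. From these deposited counts, size factors by medians of ratios over all 69 libraries and edgeR 4.0.16 quasi-likelihood tests (filterByExpr, Benjamini-Hochberg, threshold 0.05) were computed. Comparisons at a time point used its 12 sorted libraries, or the 9 mES libraries, and time steps and their differences used all 69 libraries in 1 fit, with WT as the mean of the sorted WT populations in the steps and as WT–emiRFP in the change of the genotype difference. The members and gene lists were chosen with earlier results of these data known. 1 Hox gene of the table outside the list is not reported here. Values by library are given for the largest called difference of each paralogue class in each comparison at 120 and 144 h and for the highest member of each cluster at 144 h, and further members were chosen after their values were seen. On counts simulated for the genotype comparison at 120 h (17700 genes, 200 changed 2-fold), 81% of the changed genes were recovered and 5.81% of the calls were unchanged genes. The simulation kept the size factors and drew no shared replicate effect, and in the data 51.0% of genes were called. Its rates are therefore not those of the real comparison.

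Replicates were independent experiments by the methods of the study, and p-values measure the spread between them. Deviations from the group means of libraries with the same replicate number correlated above 0.1 in all pairs of the comparisons at single times (lowest 0.116 over 14106 genes), except for neighbours at 120 h (lowest 0.07), clones at 0 and 72 h (lowest 0.088 and 0.041) and the populations within gastruloids at 72 and 120 h, so that the numbers were taken to pair the libraries elsewhere. In the exceptions the correlations do not decide whether the numbers pair the libraries. Where the block moved a count of calls at a single time by over 1.5 times, its value stands beside the result. Alternatives were DESeq2 1.42.0, TMM, no filter on low counts, other sets of libraries in the fit, a minimum change, leaving out each replicate, subtraction of emiRFP RNA, and other onset shares and weights. The weights on exon bases of the gene alone and the index without Hoxb1 were added after the data were seen.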

Additional observations from a re-analysis of the deposited data

Results flagged for a closer look

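The difference between p53KO–emiRFP and WT–emiRFP cells changed between consecutive times, as tested by the difference of differences in edgeR. From mES cells to 48 h it changed in 1 member, Hoxd13 (0.98 ± 0.29, adjusted p = 0.028), and in 0 without replicate 1, without replicate 2 or without replicate 3, and with no filter on low counts. From 72 to 96 h it changed in 11 members, all downwards, with the largest change in Hoxd9 (-2.57 ± 0.55, adjusted p = 7.3e-04). Hoxd9 was measured at 60.0, 72.5 and 55.3 normalized counts in p53KO–emiRFP and 17.2, 6.12 and 18.7 in WT–emiRFP cells at 72 h, and at 847, 766 and 1204 and 901, 1103 and 1674 at 96 h. Without replicate 1 or replicate 2, 2 or 1 of the members were called in this step.

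From 96 to 120 h the difference changed in 25 members, all upwards, with the largest change in Hoxd3 (2.01 ± 0.30, adjusted p = 3.9e-07). From 120 to 144 h it changed in 30 members, upwards in 29 and downwards in 1, with the largest change in Hoxa11 (5.22 ± 0.74, adjusted p = 2.6e-07). Hoxa11 was measured at 3.09, 6.39 and 7.07 normalized counts in p53KO–emiRFP and 7.23, 4.88 and 14 in WT–emiRFP cells at 120 h, where it was not called, and its WT–emiRFP values at both times came from at most 15 raw counts.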

How the results depend on the processing

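The counts of members called were within 1.5 times the main count in 275 alternatives, higher in 36 and lower in 44. For single members, only those called in the main fit at 120 and 144 h were followed, between genotypes, neighbours and clones and within gastruloids. Their sign and call held in 1454 alternatives, and the call was lost in 64. The direction turned in 1, Hoxd1 between neighbours at 144 h, at -0.46 after subtraction by H2bc21. Calls gained, earlier times and time steps are not part of this tally. The genotype counts at 120 and 144 h kept within 1.5 times under every alternative run. The cause of the moves below was not tested, other than that the alternatives without a filter test more genes and those with a minimum change call fewer by construction.

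With no filter on low counts, the members called numbered 19 between clones at 120 h, 13 between genotypes at 96 h, 12, 5 and 16 between neighbours at 96, 120 and 144 h, and 18 and 11 within gastruloids at 72 and 96 h. With the replicate block they numbered 21, 17, 15, 11, 16, 16 and 14 in the same order. At further times, no filter gave 7 and 8 between genotypes and 3 and 3 between clones (at 0 and 48 h, and at 0 and 96 h), 0 and 2 for the changes to 48 and 72 h, and 1 within gastruloids at 48 h. The block gave 5 between genotypes at 0 h, 6 between clones at 96 h and 2 within gastruloids at 48 h, and moved no other count of the comparisons at single times by over 1.5 times. Deviations of libraries with the same replicate number correlated weakly in some comparisons. The lowest values were 0.07 between neighbours at 120 h and 0.088 and 0.041 between clones at 0 and 72 h. Within gastruloids they were 0.041 and 0.07 at 72 and 120 h. These values do not decide whether the numbers pair the libraries. With only the compared groups in the fit, 0 members were called between clones at 120 h and 0 and 1 between neighbours at 96 and 120 h. With all 23 groups in 1 fit they numbered 0 between clones and 1 between neighbours at 120 h, and 2, 5 and 1 between clones at 0 h, between genotypes at 0 h and within gastruloids at 48 h. DESeq2 called 2, 1 and 10 between clones at 0, 96 and 120 h. Subtraction by H2bc14 and H2bc21 gave 1 and 1 between neighbours at 120 h and 20 and 25 at 144 h.

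With an absolute log2 fold change of at least 1, the members called numbered 0 between clones at 120 h, 1 between genotypes at 96 h, 0, 0 and 3 between neighbours at 96, 120 and 144 h, 16 within gastruloids at 120 h, 11 and 18 in the WT steps to 120 and 144 h, 6 in the p53KO step to 144 h and 0 for the change to 48 h. Leaving out 1 replicate gave 0 to 3, 0 to 1, 0 to 1 and 0 to 8 between clones at 0, 72, 96 and 120 h, 0 to 4 and 1 to 2 between genotypes at 0 and 48 h, 0 in each case for the change to 48 h, 8 to 20 and 2 to 5 between genotypes at 72 and 96 h, 1 to 12 for the change to 96 h, 0 to 1, 0 to 1 and 5 to 8 between neighbours at 96, 120 and 144 h, 2 to 10, 0 to 4 and 16 to 28 within gastruloids at 72, 96 and 120 h, and 6 to 10 in the p53KO step to 48 h.

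The mean paralogue number moved with its weights. In the order WT–emiRFP, p53KO–emiRFP, WT–mCherry beside WT and WT–mCherry beside p53KO, the values with weights of log2(level + 1) were 6.17, 6.44, 6.33 and 6.35 at 72 h. They were 6.04, 6.10, 5.99 and 5.98 at 96 h. The 120 h values were 6.27, 6.24, 6.23 and 6.24 and those of 144 h 6.58, 6.50, 6.46 and 6.58. Without Hoxb1, the 72 h values were 6.15, 6.24, 6.42 and 6.57. Those of 96 h were 6.50, 6.67, 6.57 and 6.46, those of 120 h 6.86, 6.99, 6.92 and 6.81, and those of 144 h 7.13, 7.21, 7.22 and 7.09. Per kb of exon bases of the gene alone it was 6.13 in p53KO–emiRFP cells at 120 h and 6.53, 6.67, 6.81 and 6.51 in the 4 populations at 144 h. With weights not per length it was 3.65 in WT–mCherry beside WT at 72 h and 6.85 in p53KO–emiRFP at 144 h. The difference of p53KO–emiRFP minus WT–emiRFP at 72 h was 1.00, 0.27 with log2 weights and 0.08 without Hoxb1. That of WT–mCherry beside p53KO minus beside WT at 144 h was -0.31, turned to 0.12 with log2 weights, and was -0.13 without Hoxb1. Onset at 5% and 25% of the highest WT mean gave rho of 0.70 and 0.58, and without replicate 3 it was 0.54, with 3 members at 72 h. Several members of groups 10 to 13 had low counts, and members below the filter on low counts were not tested in the values of the report. With 1 p53KO clone, the genotype and the history of that clone cannot be told apart, and emiRFP RNA moves with the neighbour comparison.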
